A study of Mus musculus with 6 samples.

Results

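The genes described here are the Plppr family and the genes that make, remove and sense lysophosphatidic acid: Plppr1, Plppr2, Plppr3, Plppr4, Plppr5, Plpp1, Plpp3, Enpp2, Lpar1 and Lpar4. A gene was taken when a row of the deposited array table carried its symbol and no other symbol in the platform annotation. By this rule 9 of the 10 genes had a row, out of 19938 genes in all, and each of the 9 had exactly 1 such row, so no choice between rows was needed. Enpp2 was not analysed here, and a further row of Plppr1 that also carried the symbol of another gene was left out. The group was drawn around Plppr5 with its difference between the conditions already known, so the differences of these genes are given as a description, with no p-value, and nothing is read from how many of them a fit calls.

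The arrays were hybridised with RNA of primary cultures from the brain of OF1 mouse embryos at embryonic day 17, which had differentiated in fetal calf serum into a mixture of neurons and glia. In serum-free medium without growth factors the cultures then received 1,25-dihydroxyvitamin D3 (1,25D), the hormonally active form of vitamin D, at 10 nM, or vehicle as the control. Vehicle is named in the treatment protocol, while another field labels the controls as not treated. There were 3 arrays per group, labelled as biological replicates 1 to 3. The number of embryos behind a culture and the length of treatment have no entry in the sources used here. Whether the replicates are separate cultures is not said beyond that label, so the p-values cover only the spread among these 6 arrays.

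Lysophosphatidic acid (LPA) is a small signalling lipid. It is released outside the cell by the secreted enzyme autotaxin, the product of Enpp2, it acts through G protein-coupled receptors of the Lpar family, and it is broken down at the cell surface by the lipid phosphate phosphatases of the Plpp family. The Plppr proteins, also called plasticity-related proteins, are membrane proteins related in sequence to these phosphatases, lack residues needed for their catalysis, are found mostly in the nervous system, and are known for roles in filopodia, neurite growth, dendritic spines and synapses.

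The sequences that carry this description are the stretches upstream of Plppr5, of Plppr3, and of Plppr4, the family member that lies next to Plppr5 with 0 annotated genes between them on chromosome 3. They are RefSeq sequences of build GRCm38.p6, written 5′ to 3′ on the strand of the gene. Capitals mark the hexamers of a direct repeat with a spacer of 3 bases (DR3), the arrangement bound by the vitamin D receptor with its retinoid X receptor partner, found here with 1 mismatch to the searched letters. The line of Plppr5 is chr3:117574977-117575226 on the plus strand, the 250 bases before the start that RefSeq's table uses. The line of Plppr3 is a shorter stretch of 30 bases around its match, chr10:79874836-79874865 on the minus strand. The line of Plppr4 is chr3:117360877-117361126 on the minus strand, the 250 bases before its start, and has no capitals because no such repeat and no single hexamer was found in it. The annotated extents of Plppr5 and Plppr3 reach beyond these windows, so each has a start further upstream that was not searched.
Plppr5: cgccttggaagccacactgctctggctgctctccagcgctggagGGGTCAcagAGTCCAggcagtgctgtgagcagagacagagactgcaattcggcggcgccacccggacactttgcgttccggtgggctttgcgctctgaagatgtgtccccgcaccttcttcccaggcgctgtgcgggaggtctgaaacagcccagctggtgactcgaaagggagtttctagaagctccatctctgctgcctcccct
Plppr3: actgcccaGGGTCAggaGGGTGAggtggcc
Plppr4: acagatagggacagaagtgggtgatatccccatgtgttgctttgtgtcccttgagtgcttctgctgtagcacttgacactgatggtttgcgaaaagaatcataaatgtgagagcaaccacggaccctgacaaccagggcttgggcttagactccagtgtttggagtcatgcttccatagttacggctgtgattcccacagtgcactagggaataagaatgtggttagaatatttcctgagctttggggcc

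The search covered windows of 300 bases from 250 before to 50 after a start, on both strands. The first hexamer was AGGTCA, the common core of nuclear receptor elements. The second was AGTTCA, a variant of that core. The third was GGGTCA, which occurs in known vitamin D response elements. The last was GGTTCA, which is found in such elements too. Such windows were given for 8 of the 10 genes, 10 windows in all. A DR3 element with at most 1 mismatch over its paired hexamers was found in the windows of Plppr5 and Plppr3, against 1.73% of the 32851 RefSeq windows, and a DR3 element with no mismatch was in none of the 10 windows and in 0.0396% of all. In Plppr5 it began at position -206 from the start, as GGGTCACAGAGTCCA, and in Plppr3 at position -223, as GGGTCAGGAGGGTGA. A single hexamer with no mismatch, which 43.7% of all windows hold, was found in Plppr5, in Plppr3 and in 1 of the 3 windows of Lpar1. The DR3 search with its mismatch was chosen after the sequences were seen, so the share of all windows is no test of these matches. They are descriptions of letters, and binding of the receptor was not tested.

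Plppr5 is a family member known to promote filopodia and spine-like protrusions. Its log2 intensity was 7.31, 8.40 and 7.35 on the control arrays of replicates 1, 2 and 3, and 10.18, 10.01 and 10.26 on the 1,25D arrays. Every treated array was above every control array, with a gap of 1.61 between the lowest treated and the highest control value, and the treated arrays lay closer together than the controls, among which replicate 2 stood highest. The means were 7.69 ± 0.62 and 10.15 ± 0.13 (SD, n = 3 each), a log2 difference of 2.47 ± 0.28 (SE) and a 5.52-fold higher mean, the 4th largest of the 19938 genes. On the linear scale the controls read 158.9, 337.2 and 163.6 intensity units and the treated arrays 1164, 1033 and 1229. Within equal replicate numbers the difference was 7.33-fold, 3.06-fold and 7.51-fold. Replicate 2, with the smallest difference, had the highest control value, and its treated value was the lowest of the 3.

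In bulk cultures, more cells of a type and more RNA per cell cannot be told apart.

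Of the 9 genes with a row, 0 were called by limma without the replicate numbers as a block (adjusted p under 0.05 over all genes), where 5 genes and 0.0251% of all were called. With the block 1 was called, Plppr5, where 18 genes and 0.0903% were called. Plppr5 was called in 1 of the 18 settings run without the block, the one that left out the control array of replicate 2, its highest control, and in 6 of the 8 with it. Without that array its difference was 2.82 ± 0.12 (SE). Since Plppr5 was picked from this contrast, these counts are no support for its difference. Of the 9 genes it alone had groups that did not overlap, against 4.15% of all genes in either direction.

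**Figure D1:**
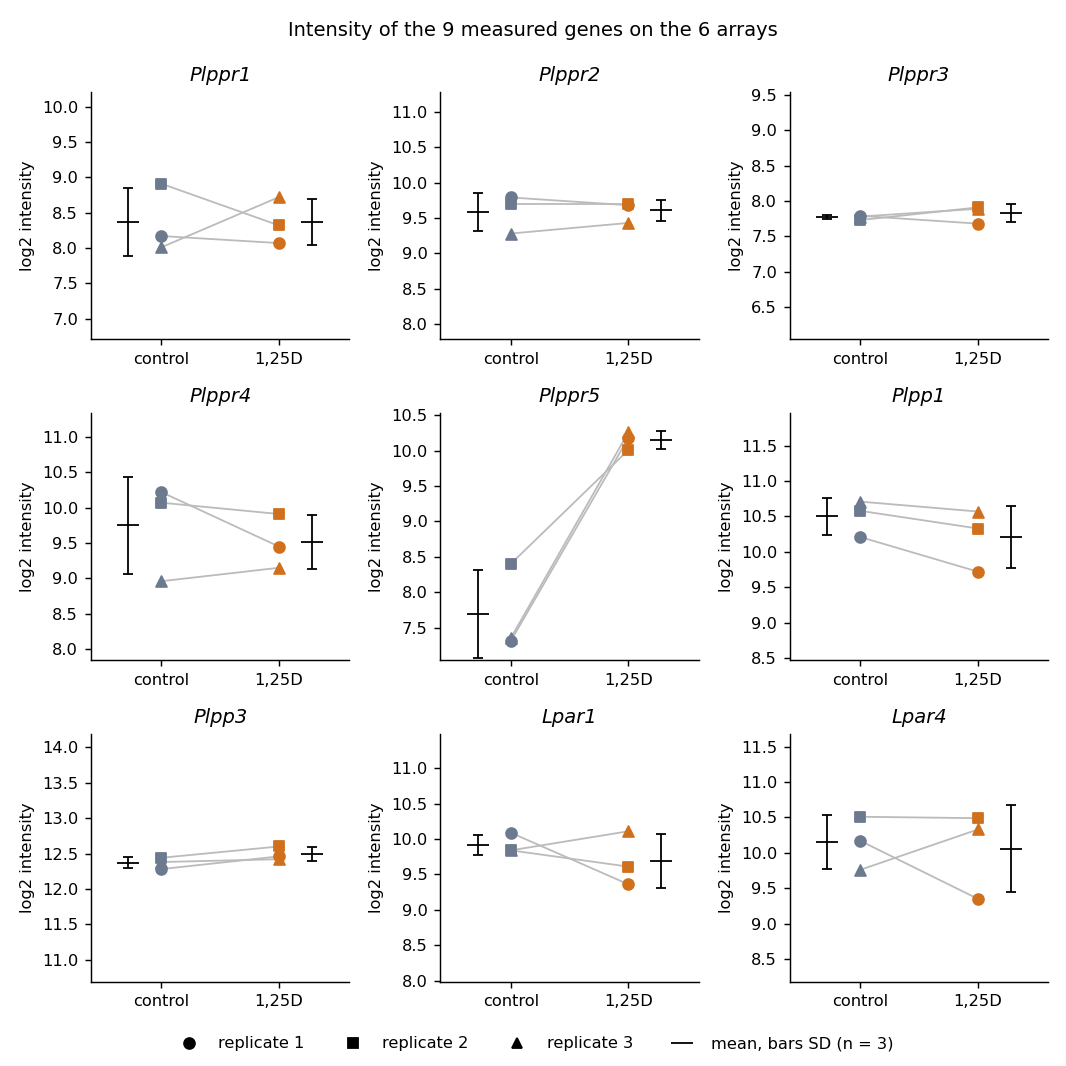
Log2 intensity (vertical axis, equally tall in log2 units in every panel) of the 9 measured genes on the 3 control arrays (grey) and the 3 arrays of 1,25D (orange); symbols give the replicate number, grey lines join equal numbers, and black bars are the mean and SD (n = 3). Plppr5 is the panel in which all 3 treated arrays, at 10.01 to 10.26, lie above all controls, at 7.31 to 8.40; in the other 8 panels the groups overlap.

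The other 4 Plppr genes had groups that overlapped, with mean log2 differences between -0.25, for Plppr4, and 0.06, for Plppr3. Plppr4, which lies at glutamatergic synapses and modulates LPA signalling there, read 10.22, 10.07 and 8.96 in controls and 9.45, 9.91 and 9.15 in treated cultures (log2 intensity). The low value in controls and the low value in treated cultures both belonged to replicate 3, and the spread among controls (SD 0.69) was larger than the log2 difference of -0.25 ± 0.34 (SE). Within replicates 1, 2 and 3 its difference was -0.77, -0.16 and 0.19. Plppr1, which promotes filopodia and neurite growth, read 8.17, 8.91 and 8.01 in controls and 8.07, 8.32 and 8.72 in treated cultures. Its differences of -0.10, -0.58 and 0.71 within replicates had no common sign and averaged to 0.01 ± 0.26 (SE).

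Plppr2 read 9.79, 9.70 and 9.28 in controls and 9.68, 9.70 and 9.43 in treated cultures, with replicate 3 lowest in both groups and a log2 difference of 0.01 ± 0.15 (SE). Plppr3, an axonal member of the family, varied least of the 9 genes, between 7.68 and 7.91 over the 6 arrays. Its log2 difference was 0.06 ± 0.10 (SE). Its upstream window and that of Plppr5 each hold a DR3 match with 1 mismatch, and the part of these matches in either difference was not tested. The mean of Plppr3 over the 6 arrays lay at the 46.6th percentile of all genes. The percentile describes the signal of a row and not the number of transcripts. The other 8 lay between the 58.1st percentile, for Plppr1, and the 99.3rd, for Plpp3.

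Of the phosphatases that remove extracellular LPA, only Plpp1 and Plpp3 are among the 9 genes. Plpp3 had a higher mean and Plpp1 a lower one in treated cultures, with groups that overlapped. The median absolute difference over all genes was 0.07 on the log2 scale. Plpp3, which is abundant in astrocytes, read 12.28, 12.44 and 12.38 in controls and 12.46, 12.60 and 12.42 in treated cultures. It was higher within each replicate number, by 0.19, 0.16 and 0.04 on the log2 scale. The mean difference of Plpp3 was 0.13 ± 0.10 (SE, or 0.08 with the block), a 1.09-fold ratio. Plpp1 read 10.21, 10.58 and 10.71 in controls and 9.72, 10.33 and 10.57 in treated cultures. It was lower within each replicate number, at -0.49, -0.25 and -0.14, and replicate 1 was the lowest array in both groups. The mean difference of Plpp1 was -0.29 ± 0.23 (SE, or 0.09 with the block). Plppr5, Plpp1 and Plpp3 were the 3 genes of the 9 with the same sign in all 3 replicates, a property that 25.8% of all genes shared.

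The receptors Lpar1 and Lpar4 had differences of opposite sign between replicate numbers. Lpar1, a receptor of neural progenitors and myelinating cells, read 10.09, 9.84 and 9.84 in controls and 9.36, 9.61 and 10.11 in treated cultures, with treated values both below and above all controls. Its log2 difference was -0.72, -0.23 and 0.27 within replicates 1, 2 and 3 and -0.23 ± 0.19 (SE) over all arrays. Lpar4 read 10.17, 10.51 and 9.76 in controls and 9.35, 10.49 and 10.33 in treated cultures. Its difference was -0.82, -0.02 and 0.57 within replicates and -0.09 ± 0.31 (SE) over all arrays. The sign turned without the treated array of replicate 1 (0.26 ± 0.21, SE) and without the control array of replicate 2 (0.09 ± 0.34, SE).

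Lpar1, Lpar4, Plppr4 and Plppr1 each had a difference that was below 0 within replicates 1 and 2 and above 0 within replicate 3. Plppr2 had -0.10, 0.00 and 0.15, with replicate 2 just below 0. Of the 9 genes, 7 were below 0 within replicate 1, 6 within replicate 2 and 1 within replicate 3. Without Plppr5 the median of the other 8 genes was -0.30, -0.09 and 0.17 within the replicates, while the median of all genes lay at 0.00, 0.03 and -0.01. The same signs were seen in the medians of 3 of the 9 marker lists. Choroid plexus markers had -0.04, -0.02 and 0.17 within replicates 1, 2 and 3, and neuron markers -0.02, -0.01 and 0.01. The largest were those of ependymal cells, the ciliated cells that line the ventricles. Of 9 measured ependymal markers 8, 9 and 0 were below 0 within replicates 1, 2 and 3, and their median difference was -0.38, -0.20 and 0.48. Their summed intensity ranged from 2740 to 5227 in controls and from 3245 to 4156 in treated cultures, and none was at 0. Spag6l, a protein of the ciliary axoneme, had the widest range of them, with differences of -1.63, -0.70 and 0.94. The part of such cells in the differences of these genes was not tested.

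**Figure D2:**
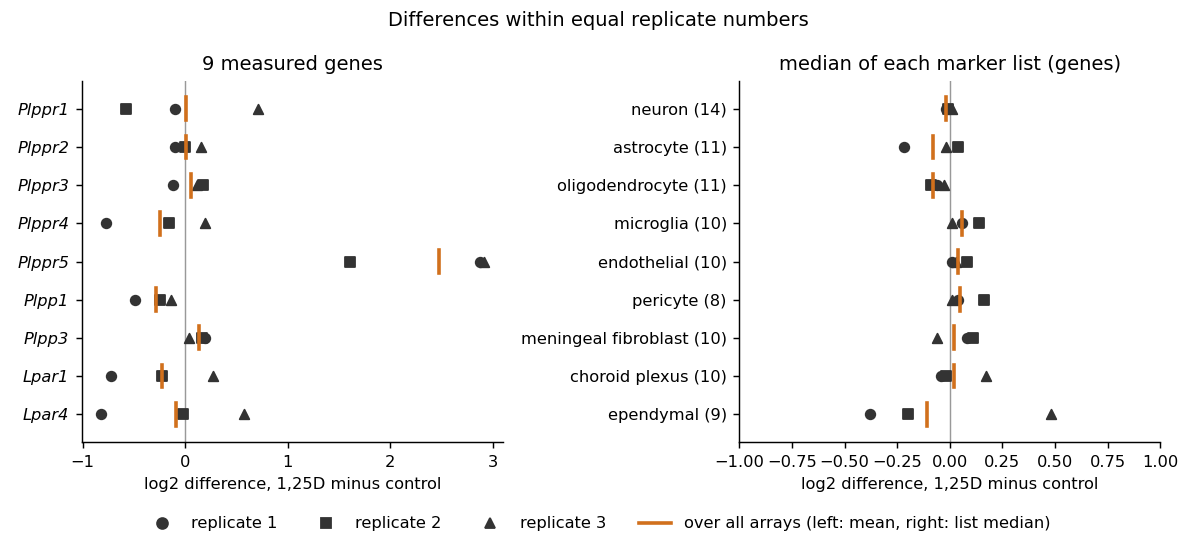
Log2 difference, 1,25D minus control, within replicate 1 (circles), 2 (squares) and 3 (triangles), for the 9 measured genes (left) and as the median of each of 9 lists of cell type markers (right, number of measured genes in brackets); orange bars are the mean difference over all arrays (left) and the median over the list of those mean differences (right), and the horizontal scales differ. Plppr5 lies at 1.61 to 2.91, apart from the other genes, and the ependymal list has the widest spread of the marker lists, from -0.38 to 0.48.

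The other marker lists had smaller differences than the ependymal one. Their medians within a replicate lay between -0.22, for astrocytes in replicate 1, and 0.17, for choroid plexus in replicate 3. Over all arrays 0 of 92 measured markers were called by limma in either fit. Of all genes 0.0251% were called without the block and 0.0903% with it, so this count says little. At an unadjusted p under 0.05 there were 2 markers without the block (2.17%, against 1.48% of all genes) and 7 with it (7.61%, against 5.78%). The markers of the labelled mixture differed in level. Astrocyte markers were mostly bright, with 9 of 11 above the median gene, a median at the 97.6th percentile and Aldoc at 13.08 ± 0.15 in controls (log2 intensity, SD, n = 3). Of the neuron markers 6 of 14 lay above the median gene, from Nefm at the 11.8th percentile to Map2 at the 93.7th. Of the markers of the oligodendrocyte lineage 5 of 11 did, from Opalin at the 8.26th percentile to Cnp at the 95.9th, and the myelin gene Mbp was at the 36.3rd. Neuron markers had a median difference of -0.02 (14 genes, 6 above 0 and 8 below) and ranged from -0.34 to 0.15. Their summed intensity was 3715 to 5157 in controls and 3111 to 4927 in treated cultures. The part of cell composition in the 5.52-fold higher mean of Plppr5 was not tested.

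**Figure D3:**
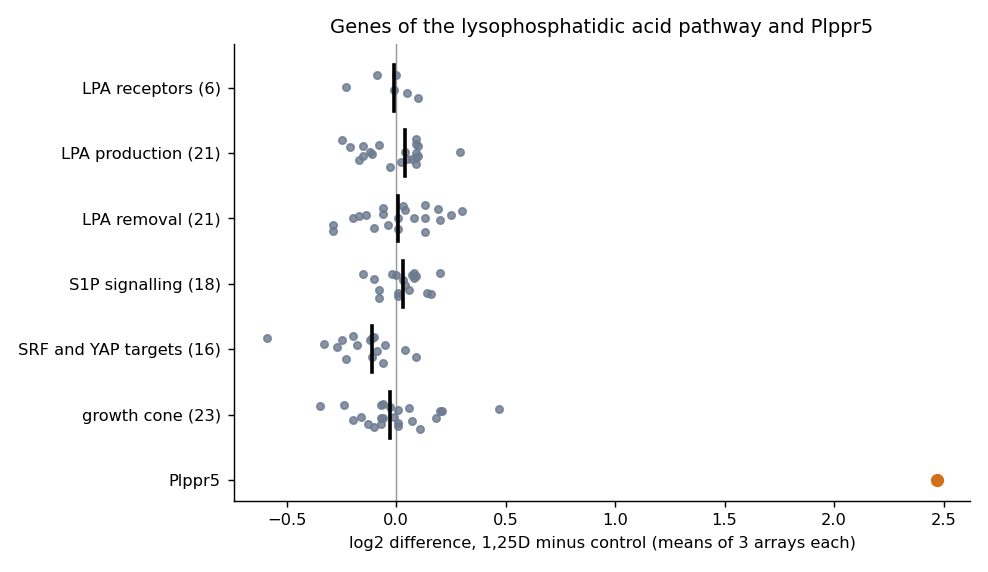
Log2 difference, 1,25D minus control, of each measured gene (grey points, means of 3 arrays each) in 6 lists of the LPA pathway and its surroundings, with the list median (black bar) and Plppr5 (orange) below; vertical jitter within a list carries no meaning. All genes of the 6 lists lie between -0.59 and 0.47, and Plppr5 lies at 2.47.

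The wider LPA pathway was described with 6 lists of 112 genes, 105 of them measured and 4 of those among the 9 genes above. In these lists 0 genes were called by limma in either fit. Of all genes 0.0251% were called without the block and 0.0903% with it. At such shares a count of 0 says little about these genes, also in the single lists below. At an unadjusted p under 0.05 there were 4 of the 105 (3.81%, against 1.48% of all genes) without the block and 11 (10.5%, against 5.78%) with it. All 105 lay between -0.59 and 0.47 on the log2 scale of differences. The groups did not overlap for 4 genes that were higher and 5 that were lower, beside 4.15% of all genes in either direction. Over all genes the median difference was 0.01 and 53.0% lay above 0.

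Among the receptors of LPA, 6 of 8 were measured, 2 lay above 0 and 4 below, and the median was -0.01. Lpar3 had a log2 difference of 0.10 ± 0.09 (SE, limma adjusted p = 1.00), with 7.27 ± 0.06 in controls and 7.37 ± 0.02 in treated cultures (SD, n = 3 each). Lpar6 was at 0.05 ± 0.10 and Lpar2 at 0.00 ± 0.17 (SE). P2ry10 was dim, with a mean at the 2.24th percentile, so its difference says little.

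Genes that make LPA or its precursors had a median of 0.04 (21 measured of 25, 12 above 0). The smallest unadjusted p-values without the block belonged to Pla2g4a, a cytosolic phospholipase that releases lysophospholipids, at -0.21 ± 0.15, and Pld1, a phospholipase that makes phosphatidic acid, at -0.12 ± 0.09 (SE, limma adjusted p = 1.00 for both without the block, and 0.89 and 0.90 with it). With the block the smallest was that of Gpam, an acyltransferase of the first step of glycerolipid synthesis, which makes LPA inside the cell. Its differences were 0.20, 0.48 and 0.18 within the replicates, and it was not called (limma adjusted p = 1.00 without and 0.72 with the block). The list for removal of LPA by dephosphorylation or acylation had a median of 0.01 (21 measured of 21, 12 above 0). It also holds enzymes that act on related lipids and not on LPA itself, such as Lpin1 and Mgll. Lclat1, an acyltransferase for lysolipids, had a log2 difference of -0.29 ± 0.10 (SE), from 10.87 ± 0.11 to 10.58 ± 0.08 (SD, n = 3 each, limma adjusted p = 1.00 without and 0.59 with the block). Agpat1, which turns LPA into phosphatidic acid inside the cell, had one of 0.25 ± 0.09 (SE), from 10.09 ± 0.06 to 10.34 ± 0.04 (SD, n = 3 each, limma adjusted p = 1.00 and 0.68). For both genes the groups did not overlap and the 3 replicates had the same sign, yet neither passed over all genes. Of all genes 4.15% had groups that did not overlap, in either direction, and 25.8% had the same sign in the 3 replicates.

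Sphingosine 1-phosphate is the sister lipid of LPA, and Plpp phosphatases act on it as well. Its 18 measured genes had a median of 0.03, with 12 above 0. Spns2, an exporter of this lipid, was at 0.20 ± 0.10, with differences of 0.21, 0.21 and 0.20 within the replicates (limma adjusted p = 1.00 without and 0.82 with the block). S1pr1, one of its receptors, was at 0.16 ± 0.11 (SE).

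LPA receptors are known to act on transcription through the regulators SRF and YAP. Transcripts that SRF and YAP are known to drive lay below 0 in 14 of 16 cases, with a median of -0.11, and 0 of 16 were called. Of all genes 53.0% lay above 0. The 16 share the same arrays and are not independent cases, and the list was chosen with earlier results known. The part of LPA signalling in their differences was not tested. Tagln, a contractile protein of smooth muscle, was at -0.23 ± 0.11, and Ajuba, a junctional scaffold, at -0.33 ± 0.16 (SE, limma adjusted p = 1.00 for both without the block, and 0.78 and 0.68 with it). Cnn1, the smooth muscle calponin, had the lowest difference of the 6 lists, at -0.59 ± 0.33 (SE), with -0.36, -0.60 and -0.81 within the replicates. It had the smallest p-value of the list with the block and was not called (limma adjusted p = 1.00 without and 0.25 with the block). Several of these transcripts also belong to contractile cells. Of the 8 measured pericyte markers 6 lay above 0, with a median of 0.05. Pdgfrb was at 0.48 ± 0.20 (SE) and Vtn at 0.37, and the other 6 lay between -0.05 and 0.15. The part of such cells in the differences of the list was not tested.

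Genes of the growth cone and of neurite growth, the processes in which Plppr proteins are best known, had a median of -0.03 (23 measured of 24, 10 above 0), and 0 were called. Dpysl3, a collapsin response mediator protein of growth cones, had the smallest p-value, with 10.25 ± 0.07 in controls and 10.72 ± 0.26 in treated cultures (SD, n = 3 each). Its log2 difference was 0.47 ± 0.14 (SE), with 0.69, 0.31 and 0.39 within the replicates, and it did not pass (limma adjusted p = 1.00 without and 0.39 with the block). Msn, which encodes the membrane-cytoskeleton linker moesin, was at -0.35 ± 0.13 (SE, adjusted p = 1.00 and 0.72). For both genes the groups did not overlap, as for 4.15% of all genes in either direction.

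The genes most like Plppr5 were taken as the 5 with the highest Pearson correlation of log2 intensity over the 6 arrays, among genes with an SD of at least 0.3. They were Prelp, a matrix proteoglycan (r = 0.995), Slc1a1, a neuronal glutamate transporter (0.994), Cnksr2, a synaptic scaffold of Ras signalling (0.977), Crabp1, a binding protein for retinoic acid (0.973), and Itih3, a chain of the inter-alpha-trypsin inhibitors that bind hyaluronan (0.968). The 6 points form a low and a high group, so these values mostly restate the shared difference between the conditions. A high correlation with Plppr5 also favours genes that are high in the control of replicate 2, as Plppr5 is, so the pattern across replicates follows from the choice too. Within replicate 2 their difference was 0.66 for Prelp, 0.94 for Slc1a1, 1.13 for Cnksr2, 1.87 for Crabp1 and 0.92 for Itih3, beside 1.61 for Plppr5. The highest correlation of another of the 9 genes with Plppr5 was 0.71, for Plpp3, and Plppr4, its neighbour on the chromosome, had -0.19. These correlations share arrays and normalisation and are given without a test.

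**Figure D4:**
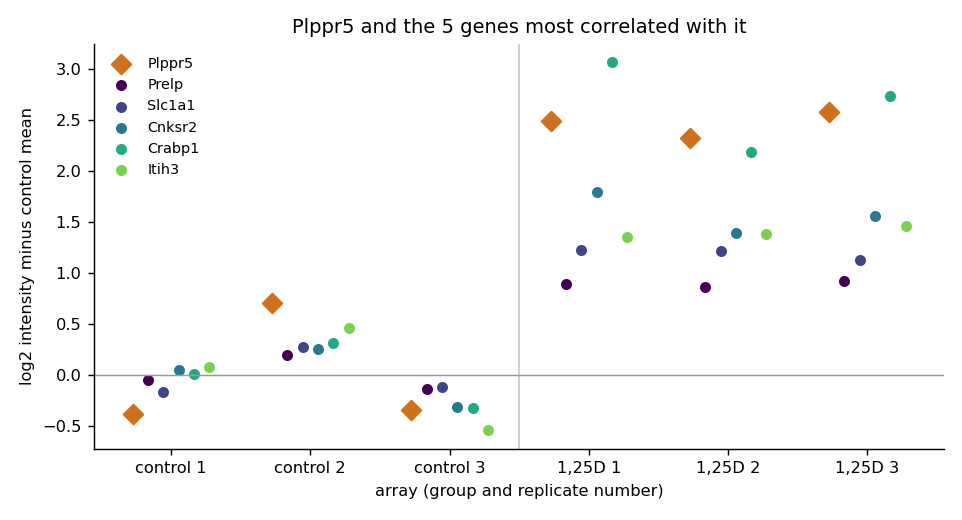
Log2 intensity minus the gene's control mean (vertical axis) on each of the 6 arrays (horizontal axis, points offset by gene) for Plppr5 (orange diamonds) and the 5 genes most correlated with it (circles). The genes were chosen for this likeness: all 6 are highest among the controls in replicate 2 and higher on each 1,25D array than on any control; Crabp1 and Plppr5 lie highest on the treated arrays.

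Genes next to Plppr5 on the chromosome had differences that were small beside its own of 2.47. The median absolute difference over all genes was 0.07. In RefSeq order the 3 measured genes before Plppr4 and the 3 after Plppr5 lay between -0.32 and 0.10 on the log2 scale of differences, and Plppr4 itself at -0.25. Snx7, a sorting nexin and the next gene after Plppr5, was at -0.32 ± 0.17 (SE) and was lower within each replicate number, at -0.22, -0.52 and -0.21 (limma adjusted p = 1.00 without and 0.68 with the block). None of the 6 was called, where 0.0251% of all genes were called without the block and 0.0903% with it. The row of 1700061I17Rik and that of Mir137, a microRNA gene, were dim, with control means of 5.61 and 5.13, below the lower quartile of all genes at 6.79, so their small differences say little.

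**Figure D5:**
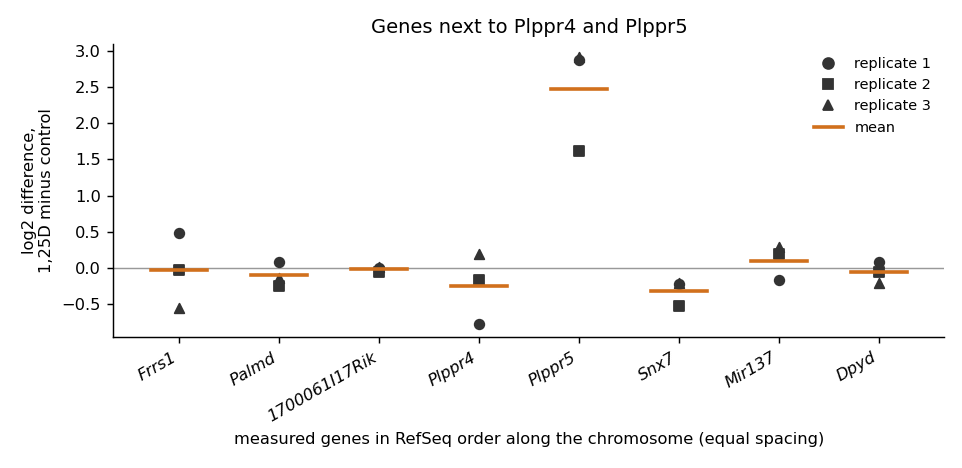
Log2 difference, 1,25D minus control, within replicate 1 (circles), 2 (squares) and 3 (triangles) and as the mean (orange bars) for the measured genes around Plppr4 and Plppr5 in RefSeq order, drawn at equal spacing. Plppr5 is at 2.47 and its neighbours lie between -0.32 and 0.10.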

How the data were processed

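The deposited intensity values come from RMA, run by the authors in Expression Console (Affymetrix), according to the submitters' processing notes; no version or filter is named in the sources used here. They are on a linear scale (8.05 to 22019), so log2 was taken. Of the table's 35556 rows, GEO's platform annotation gave 21789 1 symbol, 1621 several and 12146 none, for 19938 genes (for 999 with several rows, the one with the highest mean). RMA gives no detection call, and the number of arrays limits the precision.

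Differences are 1,25D minus control from limma 3.58.1 in R 4.3.3 (lmFit, eBayes) over all genes, with Benjamini-Hochberg adjustment and a threshold of 0.05; the code was tested on simulated data. The main fit held the group only, and SEs are from it unless the block is named. Deviations from the group means correlated at 0.51, 0.65 and 0.46 between arrays of equal replicate number over all genes. Between unequal numbers they correlated at -0.51 to -0.01. Over the 9 genes alone the correlations were 0.16, -0.07 and 0.52 for equal numbers and -0.57 to 0.55 for unequal ones. The 9 genes alone thus do not show the pairing. Because of the values over all genes, differences within equal numbers and a fit with the numbers as a block are given beside the main fit. This pairing comes from the data, not the labels. On the replicate 1 arrays 1514 rows had identical values in both groups, against 7 and 11 for replicates 2 and 3, and none of the 9 genes was among them.

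The members and lists were chosen with earlier results of these data known, and the DR3 search with its mismatch after the sequences were seen. List symbols were updated through RefSeq gene IDs. Named genes were the members, the 2 list genes with the smallest unadjusted p (or any called), the 5 genes most correlated with Plppr5, 3 measured neighbours on each side, and the 2 brightest markers of a list; Lpar2, Lpar6, P2ry10, Spag6l, Gpam, Cnn1, Vtn and the dim markers Nefm, Opalin and Mbp were added after their values were seen. No set test was run, and 1 further pathway list is not reported here.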

Additional observations from a re-analysis of the deposited data

How the results depend on the processing

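The differences of the 9 genes moved by less than their replicate SD in each of 25 alternative settings. This measure was mostly bound to come out so and is no support for the differences. Settings that change only the block, the variance model or the genes tested leave a difference as it is. Leaving out 1 array of 3 cannot move it by as much as this SD. Plppr5 ranged from 2.24 to 2.89 on the log2 scale, Plpp3 from 0.07 to 0.17 and Plpp1 from -0.48 to -0.05, while Plppr1 (-0.34 to 0.30), Plppr2 (-0.14 to 0.11), Lpar1 (-0.48 to 0.02), Lpar4 (-0.42 to 0.27) and Plppr4 (-0.64 to 0.01) took both signs. The count of the 9 genes called was 0 as reported and 1 (Plppr5) with the replicate block, with the block and quantile normalisation, and with the block without the genes of identical replicate 1 values, an alternative chosen after seeing the data. With the block it was 0 without moderation of the variance and 0 over all rows of the table. Leaving out arrays or replicate numbers gave counts of 0 to 1. Over all genes the count was 5 as reported, 18 with the replicate block, 25 with the block and quantile normalisation, 22 with the block without the genes of identical replicate 1 values, 1 with the block over all rows, and 0 with unmoderated variances in either fit (339 and 1015 genes had an unadjusted p under 0.05) or over all rows without the block (521). It was 6 without the genes of identical replicate 1 values. Leaving out single arrays gave 0 to 2 genes, and leaving out replicate 1, 2 or 3 with the block gave 40, 3 and 45. The cause of these changes was not tested. The pathway count was 0 in every setting run. With 3 arrays a group and no detection call, small differences of dim rows cannot be resolved.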
